A study of Homo sapiens with 8 samples.

Results

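The loci of 4 GATA genes, GATA2, GATA3, GATA4 and GATA6, held 42 of the 14191 chromatin sites in a pair of lists made from ATAC-seq, an assay in which a transposase inserts sequencing adapters into accessible DNA. The member sites were taken by position alone, but the loci were chosen with earlier results of these data known. A site counted if its centre fell, on the hg19 genome, in 7.8 to 9.1 Mb of chromosome 10 (GATA3), 127.9 to 128.6 Mb of chromosome 3 (GATA2), 19.3 to 20.2 Mb of chromosome 18 (GATA6) or 11.2 to 12.0 Mb of chromosome 8 (GATA4). GATA3 held 16 sites, GATA2 held 5, GATA6 held 14 and GATA4 held 7. The GATA2 and GATA3 loci were set against the GATA4 and GATA6 loci.

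The 8 samples were bulk cultures of H9, a human embryonic stem cell line, in 4 groups of 2. The groups were p63-/- cells at day 7, wild-type cells at day 7, cells of the genotype TetO:Tp63+/- at day 0 after 2 days of doxycycline at 2 ug/ml, and wild-type cells at day 0. Both day 7 groups had received retinoic acid at 1 uM and BMP4 at 5 ng/ml and are labelled surface ectoderm, the epithelial sheet that gives rise to epidermis; day 0 cells are labelled embryonic stem cells. The number of clones behind each engineered line is not given in the sources used here.

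One list (6037 sites, "p63-closed") holds, by its name, regions that morphogens open and p63 closes, and belongs to both day 7 groups in the labels. The other (8154 sites, "opened") holds, by its name, regions that morphogens open, and belongs to wild-type cells at day 7 and day 0. p63, the product of TP63, is a p53-family transcription factor required for stratified epithelia. Each list gives positions and numbered names but no count, signal or p-value, so depth is unknown, no value per culture is given, and the cell type labels could not be set against marker genes. The direction of each change is the authors' own. In bulk cultures, more cells with an open site and a more open site in each cell cannot be told apart.

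GATA factors are zinc-finger proteins that bind DNA containing the letters GATA. GATA2 and GATA3 act in trophectoderm, in early non-neural ectoderm, where BMP signalling induces them, and in blood lineages; GATA3 also acts in epidermis and the hair follicle. GATA4 and GATA6 are regulators of endoderm and heart. Genes of this kind are often controlled by enhancers spread over large stretches of neighbouring DNA.

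In the RefSeq gene table, whose build is GRCh38.p14, the nearest protein-coding genes on either side were TAF3 and CELF2 for GATA3, DNAJB8 and RPN1 for GATA2, MIB1 and CTAGE1 for GATA6, and BLK and NEIL2 for GATA4. Coordinates of that build cannot be compared with those of the lists, so whether a listed site lies in an exon, an intron or a promoter was not determined. The RefSeq promoter sequences of GATA2, GATA3 and GATA6 are shown because these are the genes that name the intervals. Each runs from 250 bases before to 50 after the most upstream start in the table, on GRCh38.p14: chr3:128493152-128493451 on the minus strand, chr10:8045083-8045382 on the plus strand and chr18:22169339-22169638 on the plus strand. Capitals mark GCCNNNGGC, the core bound by TFAP2 factors, a family of ectodermal regulators; this motif reads the same on both strands.
GATA2: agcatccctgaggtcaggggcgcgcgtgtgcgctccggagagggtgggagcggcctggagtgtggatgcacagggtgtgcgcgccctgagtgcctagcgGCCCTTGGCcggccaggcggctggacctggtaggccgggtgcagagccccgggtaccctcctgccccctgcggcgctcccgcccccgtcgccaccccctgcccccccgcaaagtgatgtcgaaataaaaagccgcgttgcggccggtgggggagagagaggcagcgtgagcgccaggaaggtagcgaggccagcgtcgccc
GATA3: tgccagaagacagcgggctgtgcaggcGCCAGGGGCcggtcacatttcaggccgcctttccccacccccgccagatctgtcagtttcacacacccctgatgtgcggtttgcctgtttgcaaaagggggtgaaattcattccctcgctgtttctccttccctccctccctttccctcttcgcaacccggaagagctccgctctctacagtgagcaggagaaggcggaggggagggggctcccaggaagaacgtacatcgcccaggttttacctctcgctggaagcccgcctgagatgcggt
GATA6: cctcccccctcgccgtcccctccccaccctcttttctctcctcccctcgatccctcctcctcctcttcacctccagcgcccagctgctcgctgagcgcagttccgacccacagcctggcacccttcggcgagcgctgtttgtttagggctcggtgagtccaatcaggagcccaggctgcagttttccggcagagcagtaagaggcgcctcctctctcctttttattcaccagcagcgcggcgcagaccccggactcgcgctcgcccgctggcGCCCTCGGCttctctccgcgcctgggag

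The core occurred once in each of these windows. Over all starts in the table, it occurred in both promoters of GATA2, in 3 of 6 of GATA3 and in the 1 of GATA6, beside 23.2% of 35116 promoters of the same length. The share of G and C in the printed windows was 72.3% for GATA2, 60.7% for GATA3 and 66.7% for GATA6. The median over all promoters was 58.7%, and GATA3 lay near it. None of the 9 promoters held the GATA motif on either strand (AGATAA, also with T as its first letter or G as its last), which 25.0% of all promoters did. The motifs were chosen after the sequences had been seen, and a match is not evidence that a factor binds.

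The 4 loci divided the lists between them unevenly. At GATA3 11 of 16 sites were p63-closed, and at GATA2 2 of 5 were, so the pair held 13 p63-closed and 8 opened sites. At GATA6 1 of 14 sites was p63-closed, and at GATA4 1 of 7 was, so that pair held 2 p63-closed and 19 opened sites. The p63-closed share was therefore 61.9% at the GATA2 and GATA3 loci (exact 95% interval 38.4 to 81.9%) and 9.52% at the GATA4 and GATA6 loci (1.17 to 30.4%), a difference of 52.4 percentage points. The intervals do not overlap, but with sites of a list within 10 kb joined they do, at 33.5 to 79.7% for GATA2 and GATA3 (11 of 19 sites) and 1.55 to 38.3% for GATA4 and GATA6 (2 of 16). They cover counting error only and take each site as independent of its neighbours, although listed sites gather. No test of the difference was made, since sites of a locus are not replicates and the loci were chosen with earlier results known.

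Most of the contrast came from GATA3 and GATA6, which held 30 of the 42 sites between them. The share was 68.8% at GATA3 (exact 95% interval 41.3 to 89.0%) and 40.0% at GATA2 (5.27 to 85.3%). It was 7.14% at GATA6 (0.181 to 33.9%) and 14.3% at GATA4 (0.361 to 57.9%). Over the rest of the genome, 42.6% of 14149 sites were p63-closed (41.7 to 43.4%). The interval of GATA6 lay wholly below this value; those of GATA3, GATA2 and GATA4 held it. With sites within 10 kb joined the GATA6 interval held it too, with 1 of 10 sites p63-closed (0.253 to 44.5%).

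**Figure D1:**
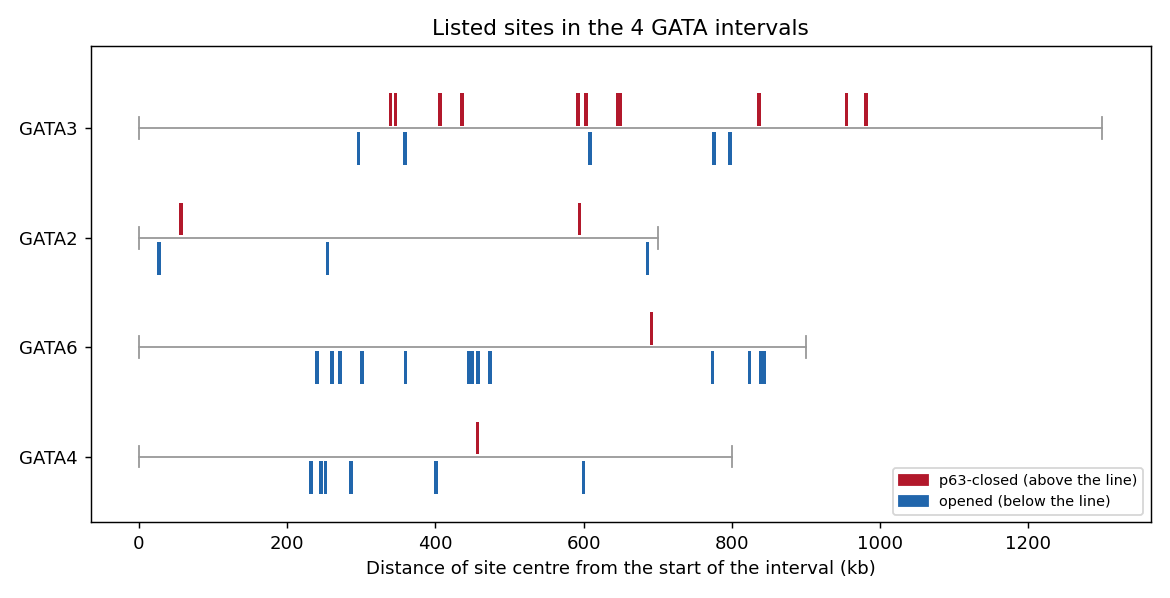
Listed sites in the GATA3, GATA2, GATA6 and GATA4 intervals, by distance of the site centre from the start of the interval in kb; marks above each line are p63-closed sites and marks below are opened sites, drawn at 1 fixed width. Red marks are spread along GATA3 (11 of 16 sites), and blue marks make up 13 of 14 sites at GATA6 and 6 of 7 at GATA4.

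The same counts can be given as densities. Site names carry numbers that run along the chromosomes, and these were read as entries of 1 catalogue of candidate regions. Density is given as sites per 1000 entries. The Poisson intervals of densities and of their ratios to the genome take each site as independent, although listed sites gather. GATA3 had 12.0 p63-closed sites per 1000 entries (exact 95% Poisson interval 6.00 to 21.5), 3.65 times the whole-genome value of 3.30 (interval of the ratio 1.82 to 6.52). Its density of opened sites was 5.47 (1.77 to 12.8), 1.23 times the whole-genome value of 4.46 (0.398 to 2.86). The excess at GATA3 was thus in p63-closed sites.

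GATA6 showed the opposite. It had 21.9 opened sites per 1000 entries (11.6 to 37.4), 4.90 times the whole-genome value (2.61 to 8.39), and 1.68 p63-closed sites per 1000 entries (0.0426 to 9.36), 0.510 times that of the genome (0.0129 to 2.84). GATA4 had 14.3 opened sites per 1000 entries (5.27 to 31.2), 3.22 times the whole-genome value (1.18 to 7.01), and 2.39 p63-closed sites (0.0605 to 13.3). At GATA2 the densities were 4.06 p63-closed sites (0.492 to 14.7) and 6.09 opened sites per 1000 entries (1.26 to 17.8), both with intervals that include the whole-genome value. In all, 1.74% of the 2420 entries in the 4 intervals were listed, against 0.774% in the rest of the genome.

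**Figure D2:**
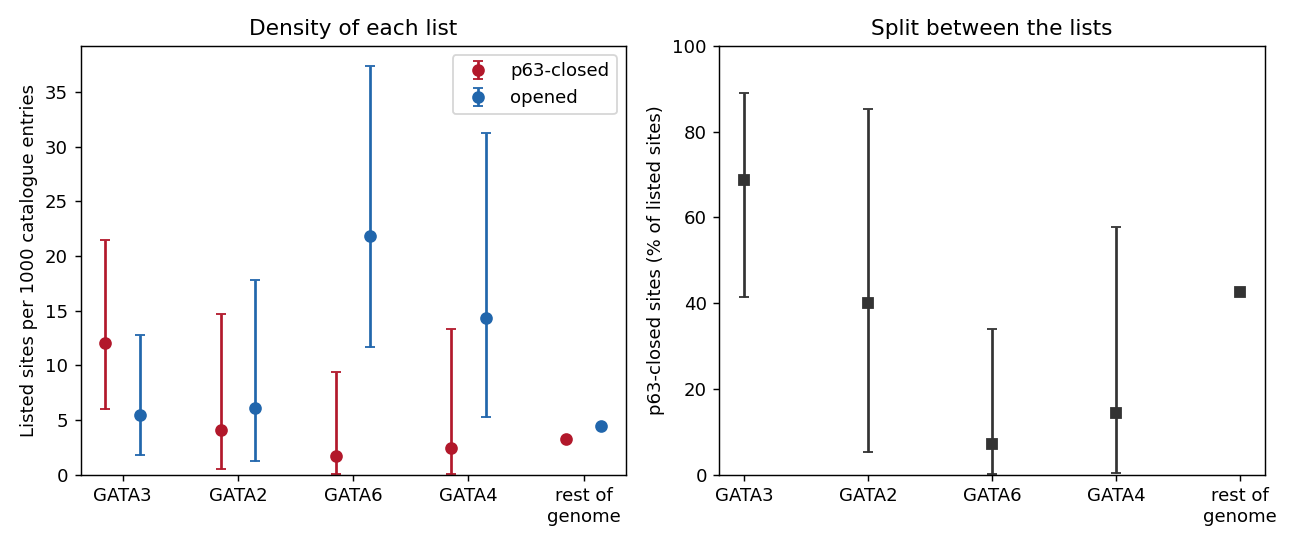
Left, p63-closed (red) and opened (blue) sites per 1000 catalogue entries at each GATA locus and in the rest of the genome, with exact 95% Poisson intervals; right, p63-closed sites as a percentage of listed sites, with exact 95% Clopper-Pearson intervals. GATA3 is highest for p63-closed sites (12.0 per 1000) and GATA6 for opened sites (21.9 per 1000).

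Each fixed 1 Mb window of the genome was then tested for more sites of a list than its entries predict, with a one-sided exact Poisson test and Benjamini-Hochberg adjustment over 2948 windows. For p63-closed sites 2.37% of windows were called, and for opened sites 2.00%. Of the 8 windows that meet a GATA interval, 1 was called for p63-closed sites, chr10:8000001-9000000, which holds every GATA3 member. The 11 p63-closed sites there compared with 2.31 expected, 4.75 times as many (exact Poisson, adjusted p = 0.00418), and 5 opened sites against 3.13 expected (adjusted p = 1). For opened sites 1 was called, chr18:19000001-20000000, with 12 against 2.98 expected, 4.03 times as many (exact Poisson, adjusted p = 0.0104); 3 of those 12 lie outside the GATA6 interval. The next window, chr18:20000001-21000000, had 8 opened sites against 2.87 (adjusted p = 0.220). The GATA4 window, chr8:11000001-12000000, had 6 opened sites against 2.44 (adjusted p = 0.472).

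Neither call held with a negative binomial test, which allows for the general gathering of sites and called no window in the genome (adjusted p = 1 for GATA3 and 0.793 for GATA6; unadjusted 0.00956 and 0.00705). With windows shifted by 500 kb, which splits the GATA3 sites at 8.5 Mb into 8 and 3 p63-closed sites, the GATA3 call was also lost (smallest adjusted p = 0.108).

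The split between lists was tested in each window with at least 6 sites against the rest of the genome, by Fisher's exact test (two-sided), adjusted over 1072 windows, of which 0.933% were called. Of the 4 such windows at GATA loci none was called. An unadjusted p below 0.05 was found in 2 of them, but its share over all 1072 windows was not counted. With sites of a list within 10 kb joined, 159 of 936 windows in the genome had such a p, and 0 of 4 at GATA loci. The GATA3 window, with 11 p63-closed and 5 opened sites, had an adjusted p of 0.222 (Fisher's exact test; unadjusted 0.0424). The GATA6 window, with 1 p63-closed and 12 opened sites, had an adjusted p of 0.142 (Fisher's exact test; unadjusted 0.0103). The uneven split at these loci therefore did not pass a threshold set over the genome.

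As a description, each interval was set beside all windows of its own width laid end to end along the genome. As many p63-closed sites as at GATA3 were found in 37 of 2271 windows of 1.3 Mb (1.63%), and as many opened sites in 30.9%. As many opened sites as at GATA6 were found in 7 of 3272 windows of 0.9 Mb (0.214%), and as many p63-closed sites in 66.5%. At least the 6 opened sites of GATA4 were found in 276 of 3679 windows of 0.8 Mb (7.50%). At GATA2 the figures were 35.1% for p63-closed and 29.1% for opened sites, of 4204 windows of 0.7 Mb. By these ranks GATA6 stood nearer the extreme of its distribution than GATA3, and GATA2 was ordinary in both lists. The fixed 1 Mb windows gave the other order, with 4.75 times the expected p63-closed sites at GATA3 and 4.03 times the expected opened sites at GATA6.

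Among windows that held at least as many sites as the locus, a p63-closed share as low as that of GATA6 was found in 2 of 43 (4.65%). A share as high as that of GATA3 was found in 16 of 50 (32.0%), where the median share was 51.0%. The number of p63-closed sites at GATA3 was ranked over all 2271 windows of its width, and the share only over these 50. These ranks therefore cannot be compared with each other.

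**Figure D3:**
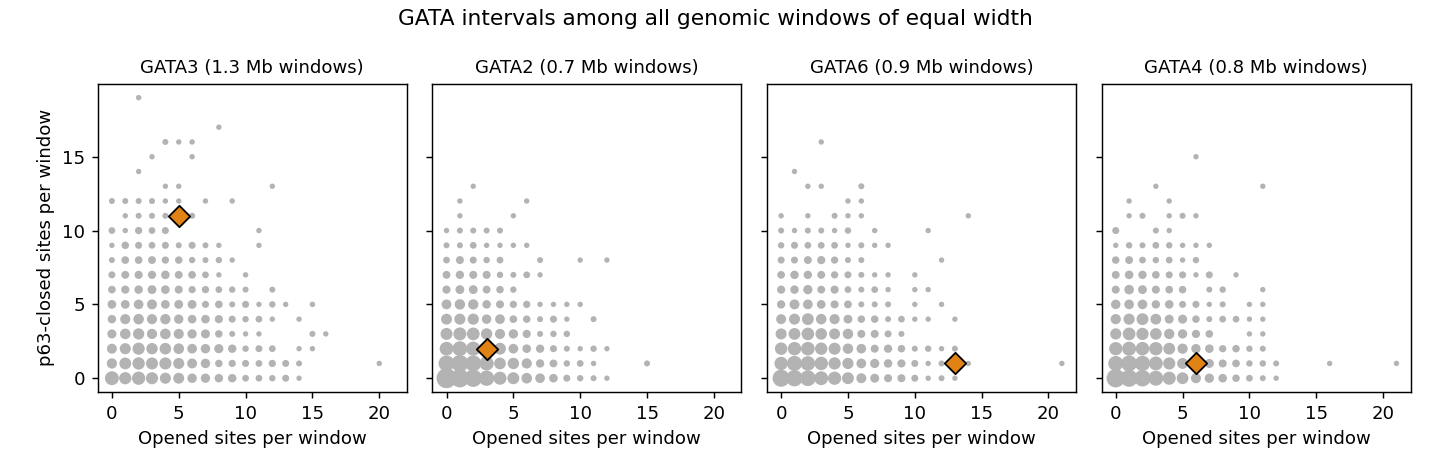
Opened sites (x axis) and p63-closed sites (y axis) per window for all genomic windows as wide as the GATA3, GATA2, GATA6 and GATA4 intervals; grey points grow with the number of windows and the orange diamond is the GATA interval. GATA3 lies high on the p63-closed axis (11 sites), GATA6 far along the opened axis (13 sites), and GATA2 within the bulk.

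The GATA3 sites ran over 686.5 kb, from an opened site at chr10:8095283-8097371 to a p63-closed site at chr10:8780503-8781805. They lay apart from other listed sites: the nearest to the left, a p63-closed site at chr10:7272048-7274314, was 821.0 kb away, and the nearest to the right, an opened site at chr10:9513889-9515148, was 732.1 kb away. Opened sites were interspersed among the p63-closed ones. The longest run from 1 list was of 4 p63-closed sites, chr10:8205297-8404320, over 199.0 kb, and the only adjoining opened sites were chr10:8575146-8577151 and chr10:8596116-8598943, the second of which was the widest opened site of the locus at 2828 bp.

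Adjoining p63-closed sites of GATA3 were 1.4 to 154.6 kb apart, and some came in close pairs. Those at chr10:8445543-8447461 and chr10:8448815-8450353 were 1353 bp apart and have consecutive catalogue numbers. Those at chr10:8138905-8140463 and chr10:8144725-8147673 were 4261 bp apart, and the second is the widest p63-closed site of the 4 loci, at 2949 bp. The tightest group of 3 sites, chr10:8391305-8409112, spanned 17.8 kb and held 2 p63-closed sites and 1 opened site. It includes the closest pair from different lists at any GATA locus, in which the opened site chr10:8408003-8409112 lay 3682 bp from a p63-closed site.

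Within GATA3, 10 of 11 p63-closed sites had another p63-closed site within 50 kb (90.9%), beside 42.2% of all p63-closed sites. Sites of a list that is dense at a locus have more such neighbours by construction, and equally dense stretches were not compared. Of the 5 opened sites of GATA3, 2 had a neighbour of the opened list within 50 kb (40.0%), beside 40.9% of all opened sites. The distance from p63-closed GATA3 sites to the closest opened one had a median of 36.5 kb, beside 118 kb over the whole p63-closed list.

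The GATA2 locus was sparse and alternated between the lists. In order it held an opened site at chr3:127926797-127927670, a p63-closed site at chr3:127956095-127957407, opened at chr3:128153749-128155185, p63-closed at chr3:128493678-128495578 and opened at chr3:128585263-128587050. No neighbouring pair came from 1 list, and no site had another of its own list within 50 kb. The closest pair, the first 2 sites, was 28.4 kb apart. The widest were the second p63-closed site, at 1901 bp, and the last opened site, at 1788 bp. The gap between the opened site in the middle and the p63-closed site to its right, 338.5 kb, was the widest between neighbours in any of the 4 loci. The opened site just outside the interval on the left, at chr3:127770126-127772575, was 154.2 kb from the first member, and the one on the right, chr3:129374860-129377693, was 787.8 kb from the last.

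At GATA6 the opened sites formed nearly unbroken stretches. The first 9 sites, chr18:19539858-19774495, were all opened and spanned 234.6 kb, and the last 4, chr18:20073298-20143541, were all opened and spanned 70.2 kb. Between them lay the 1 p63-closed site, chr18:19990723-19993155, 2433 bp wide, with 216.2 kb to the opened site on its left and 80.1 kb to that on its right. The run of 9 was the longest from 1 list at the 4 loci, against 5 opened sites at GATA4 (chr8:11432133-11602429) and 4 p63-closed sites at GATA3.

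The centre of the GATA6 locus held the densest group of sites at any of the 4. The opened sites chr18:19744623-19746729, chr18:19748368-19752185 and chr18:19756386-19758356 lay within 13.7 kb and within 3 steps of the catalogue. The middle one was 3818 bp wide, the widest site of the 4 loci and the widest of the 281 opened sites on chromosome 18; 0.920% of all opened sites were as wide. The next opened site, chr18:19773056-19774495, followed within 14.7 kb. Of the 13 opened sites at GATA6, 12 had another within 50 kb (92.3%). Their median gap to the nearest opened site was 8.98 kb, beside 73.1 kb over the whole opened list. As at GATA3, short gaps within a list follow in part from its density at the locus. The median gap from these 13 sites to the nearest p63-closed site was 238.5 kb, beside 195.2 kb over the opened list. For all 13 that was the same site, the 1 in the interval, so this median reflects where that site lies. Just outside the interval were an opened site on the left, chr18:19264951-19267457, and a p63-closed site on the right, chr18:20377129-20379933.

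GATA4 resembled GATA6 in its split but held fewer sites. Its first 3 sites, chr8:11432133-11432877, chr8:11444356-11446548 and chr8:11451045-11452483, were opened and lay within 20.4 kb. Opened sites at chr8:11485867-11487380 and chr8:11599929-11602429 followed, the second of them the widest of the locus at 2501 bp. Its p63-closed site, chr8:11656453-11657129, was 677 bp wide, the narrowest member of the 4 loci; 98.2% of p63-closed sites were at least as wide. The nearest p63-closed site to it lay 1013 kb away. The last member was opened, chr8:11798836-11800750. The nearest listed sites outside were opened ones, 774.3 kb to the left and 493.0 kb to the right.

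Over the 4 loci, 23 of 38 neighbouring pairs came from the same list (60.5%, exact 95% interval 43.4 to 76.0%), beside 61.5% over the genome. The loci differed: 8 of 15 pairs at GATA3, 0 of 4 at GATA2, 11 of 13 at GATA6 and 4 of 6 at GATA4. A locus whose sites come mostly from 1 list has more such pairs by construction.

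The sites were of ordinary width. The 15 p63-closed members had a median width of 1539 bp (677 to 2949 bp), beside 1531 bp for p63-closed sites in the rest of the genome. The 27 opened members had a median of 1682 bp (724 to 3818 bp), beside 1597 bp. Opened sites had a median of 2006 bp at GATA3, 1437 bp at GATA2, 1682 bp at GATA6 and 1714.5 bp at GATA4, with ranges that overlapped between all 4. No test was made. Width is set by the authors' site calling and is no measure of accessibility.

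**Figure D4:**
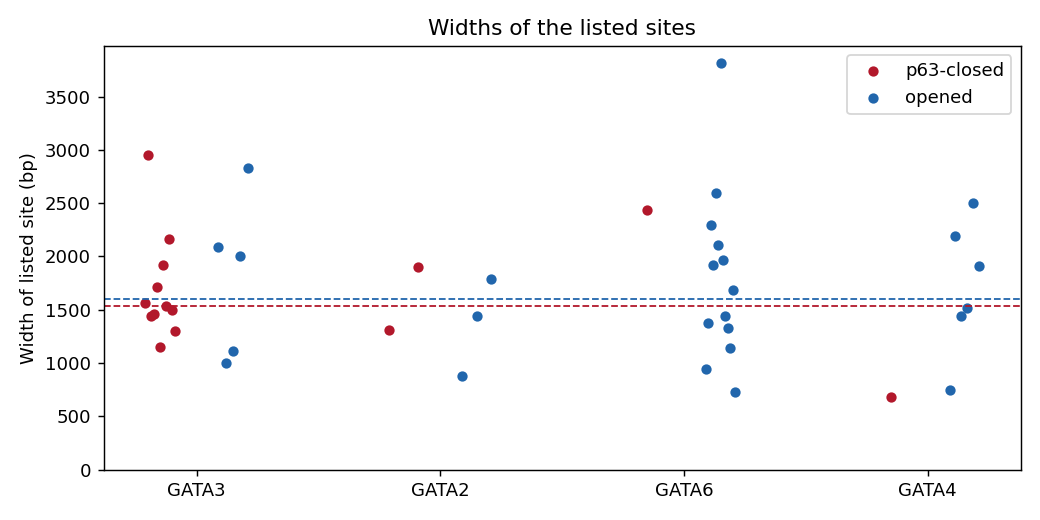
Width in bp of each p63-closed (red) and opened (blue) site at the 4 GATA loci; dashed lines are the medians of each list in the rest of the genome (1531 and 1597 bp). Points of both lists lie on either side of the lines, and the highest is the 3818 bp opened site at GATA6.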

How the data were processed

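ATAC-seq had been run on 8 H9 samples. The authors deposited 2 BED lists, whose start and end columns are the only measurements used; they hold no other value. Per the submitters' processing notes, the build was hg19 (GRCh37) and the tools were DESeq2, MACS2, Bowtie2, SAMtools and FastQC. Versions, roles, thresholds and pooling are not stated. These choices, and the depth, which is unknown, decide which sites are listed, so a site missing from a list is not shown to be unchanged.

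Positions were made 1-based. Catalogue entries were read from site numbers, with linear interpolation between listed sites; the numbering jumps at 6 places, none in a GATA interval, which were bridged at the median rate. Gaps are edge to edge. Window tests were tried on simulated independent counts, which do not gather as the listed sites do, so this gives no error rate for the real lists. Sites to name were the first, last and widest, the closest mixed pair, the longest run and the tightest group of each locus; a few others were named after their values were seen. The loci, and so their members, and the tests were chosen with earlier results of these data known. Python 3.11.15, numpy 2.4.6, pandas 2.3.3, scipy 1.17.1 and matplotlib 3.10.9 were used. Sequences are from RefSeq; the GATA4 promoter is not reported here.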

Additional observations from a re-analysis of the deposited data

How the results depend on the processing

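No paired analysis was possible because neither list gives a value for any culture, and leaving out replicates was not possible either. Of 82 alternative values, 72 stayed within the interval of the reported value or within 1.5 times its count, and 10 moved. The difference in p63-closed share has no interval of its own. It was judged by the interval of the GATA2 and GATA3 share, with the GATA4 and GATA6 share held at its reported value. With few sites per locus these intervals are wide, so this is a weak measure of stability. A reversal could be counted only for the difference in p63-closed share, and 0 were found there. The difference in p63-closed share between the GATA2 and GATA3 loci and the GATA4 and GATA6 loci ranged from 45.4 percentage points (sites within 10 kb joined) to 62.5 (sites at least 1000 bp wide). Intervals of 1 Mb around each middle, an alternative chosen after the data were seen, gave a difference within that range. The share at GATA4 went to 0% (0 of 5 sites) with sites at least 1000 bp wide, since its p63-closed site is narrower. With the negative binomial test, windows with more sites than expected went to 0 for p63-closed (119 of 2948 at an unadjusted p below 0.05) and 0 for opened sites (141 of 2948), and so to 0 of 8 at the GATA loci for each list (1 and 2 unadjusted). An expectation by base pairs called 107 windows for p63-closed sites against 70. Shifted windows called 0 of 8 GATA windows for p63-closed sites (1 unadjusted), beside 60 of 2951 in the genome. For opened sites they called 1 of 8, beside 43 of 2951. Windows of 500 kb called 1 of 12 GATA windows for each list, beside 58 of 5876 for p63-closed and 46 for opened sites. Against 10 windows with an uneven split, 1 was called with windows of 500 kb, in which sites are fewer, 3 with shifted windows (the cause was not tested) and 0 with sites joined, which leaves fewer of them (159 of 936 unadjusted). None of the GATA windows was called for its split under any of these settings (Fisher's exact test, 0 to 2 unadjusted).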
